A study of Homo sapiens with 48 samples.

Results

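The data described here are the 24 ribosome-protected fragment (RPF) libraries of SW480 cells, a human colorectal adenocarcinoma line, out of 48 libraries in all. The other 24 are total cytoplasmic RNA of the same lysates. SW480 cells carried an inducible shRNA, which was a non-targeting control (shCTRL), shEIF2B1 against eIF2Bα or shEIF2B4 against eIF2Bδ. Each line received DMSO (-DOX) or doxycycline (+DOX) at 1 µg/ml over 5 days, which gives 6 groups of 1 library per week. The experiment was run 4 times, in separate weeks, and the labels number the replicates without naming weeks. Replicate n is called week n here, with no calendar order meant. The 12 RPF libraries of weeks 1 and 3 were set against the 12 of weeks 2 and 4, with the mean of each of the 6 groups removed. Cells of a line carry the same shRNA construct in both states, and the labels do not say whether a line is a pool or a clone.

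The week pairs were chosen from these same RPF values, in which weeks 1 and 3 resembled each other and so did weeks 2 and 4. Every pair difference in RPFs is therefore given as a description with no p-value, and with its standard error (SE) for the genes described in most detail. Each week is 1 experiment whose 6 libraries share it. With 2 weeks against 2, an exact two-sided test over weeks could not go below p = 0.333.

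In Ribo-seq, RNase digests the mRNA that ribosomes do not cover, and the protected fragments are sequenced. The number of fragments on a coding sequence (CDS) follows both the amount of its mRNA and how many ribosomes sit on it. RNA of the undigested lysate is sequenced beside it to tell the 2 apart, and the steps of digestion, gradient, size selection, ligation and amplification act on the fragments of each preparation.

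The values are normalised and on a log2 scale, so that 1 unit is a doubling. They span 2.02 to 16.1 in 11145 genes for RPFs and 2.80 to 19.9 in 11947 genes for total RNA. No read counts or library totals were used, so the depth of each library is unknown. Of 10 colorectal epithelial markers 9 were among the RPF genes, and 8 of these had a pair difference above 0, beside 51.8% of all RPF genes. Their median pair difference was 0.0029 in total RNA. EPCAM, an adhesion molecule of epithelia, was the exception at -0.50, and CLDN4, a tight junction protein, was highest at 0.77. Of 13 markers of other cell types only GFAP and CD14 were listed, with pair differences of 0.0068 and 0.30.

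Week explained most of the variation between RPF libraries within a group. After the group means were removed, differences between the 4 weeks held 68.1% of the summed variance over RPF genes, and the contrast of weeks 1 and 3 with weeks 2 and 4 alone held 52.3%. In total RNA of the same lysates the corresponding shares were 31.4% and 4.72%. The median absolute pair difference was 0.28 in RPFs and 0.033 in total RNA. A difference beyond 0.5, in either direction, was found for 2073 RPF genes (18.6%) and for 1 total RNA gene. In these bulk lysates, fewer cells with a transcript and less RNA per cell cannot be told apart.

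One RPF library stood apart from its week. On the first principal component of group-centred RPF values, 11 of the 12 libraries of weeks 1 and 3 had scores above 0 and all 12 libraries of weeks 2 and 4 scored below 0. The exception was shEIF2B4 -DOX of week 3, at -9.38, within the range of weeks 2 and 4 (-29.4 to -2.73). Its induced partner of the same week scored 3.66. Since the group mean is removed, a high value in 1 library of a group lowers the others, and shEIF2B4 -DOX of week 1 had the highest score of all, 52.5. Differences between libraries of a group are unchanged by this. Week 2 of the same group scored -14.7, while weeks 3 and 2 of shCTRL -DOX scored 15.6 and -13.8. The counts of non-overlapping genes and of calls between weeks 1 and 3 are given with and without shEIF2B4 -DOX of week 3 where it moved them by over 1.5 times.

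Among genes at or above the median level, those farthest apart between the week pairs without overlap were CHCHD10, a protein of the mitochondrial intermembrane space, MYADM, a membrane protein, and the histone gene H2AC11 on the high side of weeks 1 and 3. On the low side they were TMSB4X, which encodes the actin-binding peptide thymosin β4, PTGES3, the HSP90 co-chaperone p23, and the small GTPase RAP1B. The first 120 coding bases of these 6 genes are printed because their use of G and C at codon position 3 can be read from them. Sequences are from GENCODE v29 on GRCh38, for the transcript that the deposited table lists, 5′ to 3′ along the spliced CDS, with G or C at position 3 of each codon in capitals.
CHCHD10: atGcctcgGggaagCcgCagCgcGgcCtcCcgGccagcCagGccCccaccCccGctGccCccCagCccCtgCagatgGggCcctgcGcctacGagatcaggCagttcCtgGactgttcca
MYADM: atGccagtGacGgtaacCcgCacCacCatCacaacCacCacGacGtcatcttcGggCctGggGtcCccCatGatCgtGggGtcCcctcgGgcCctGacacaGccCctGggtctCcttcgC
H2AC11: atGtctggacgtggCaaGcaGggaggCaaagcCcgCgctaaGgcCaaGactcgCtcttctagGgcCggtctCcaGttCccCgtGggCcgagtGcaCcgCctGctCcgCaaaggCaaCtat
TMSB4X: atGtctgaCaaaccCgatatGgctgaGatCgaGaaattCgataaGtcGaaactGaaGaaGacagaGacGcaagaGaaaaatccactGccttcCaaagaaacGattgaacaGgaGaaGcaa
PTGES3: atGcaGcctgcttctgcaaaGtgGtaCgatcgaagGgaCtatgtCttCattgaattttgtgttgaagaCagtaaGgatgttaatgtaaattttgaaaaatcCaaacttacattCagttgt
RAP1B: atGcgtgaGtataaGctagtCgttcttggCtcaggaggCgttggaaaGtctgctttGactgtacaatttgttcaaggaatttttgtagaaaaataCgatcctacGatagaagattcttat
CHCHD10 lies on the minus strand of chr22:23765834-23768443, MYADM on the plus strand of chr19:53866223-53876437, and H2AC11 on the plus strand of chr6:27133042-27135291. TMSB4X lies on the plus strand of chrX:12975108-12977227, PTGES3 on the minus strand of chr12:56663341-56688408, and RAP1B on the plus strand of chr12:68610839-68671901. Of the 40 codons shown, 27 end in G or C in CHCHD10, 31 in MYADM and 27 in H2AC11. The numbers were 22 in TMSB4X, 13 in PTGES3 and 10 in RAP1B. Over the whole CDS, G and C made up 70.2% of CHCHD10, 63.5% of MYADM and 63.6% of H2AC11, against 43.7% of TMSB4X, 36.6% of PTGES3 and 37.8% of RAP1B. The listed CHCHD10 transcript has a CDS of only 168 bases and TMSB4X one of 135 bases. The capitals follow the listed frames, and whether that of CHCHD10 is the frame of its main protein was not examined.

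In RPF values, CHCHD10 ranged from 8.93 to 10.15 in the 6 libraries of week 1, with a median of 9.81, and from 8.58 to 10.08 in week 3, with a median of 9.47. In week 2 it ranged from 8.27 to 9.24 around 8.81, and in week 4 from 8.21 to 8.93 around 8.64. Raw values overlapped between weeks because the 6 groups differ. With the group means removed, all 12 libraries of weeks 1 and 3 lay above all 12 of weeks 2 and 4, and the pair difference was 0.89 (SE 0.10).

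MYADM had weekly medians of 10.97, 10.12, 10.65 and 9.83 in weeks 1 to 4, with a pair difference of 0.86 (SE 0.098). H2AC11 had weekly medians of 12.90, 11.75, 12.56 and 11.80, and its pair difference was 0.84 (SE 0.094). Both were high in weeks 1 and 3 and low in weeks 2 and 4 in every group. H2AC11 encodes the same listed protein as 4 other measured histone H2A genes, and footprints of such near-identical copies may have been split between them by the counting.

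TMSB4X went the other way and had a pair difference of -1.61 (SE 0.19). Its values ran from 6.96 to 8.04 in week 1 and from 7.21 to 8.78 in week 3, against 8.63 to 9.58 in week 2 and 9.14 to 9.97 in week 4. PTGES3 had weekly medians of 9.41, 10.72, 9.79 and 11.22, and a pair difference of -1.53 (SE 0.16). RAP1B had no overlap even before the group means were removed. It reached at most 7.75 in week 1 and 7.99 in week 3, and was at least 8.11 in week 2 and 8.39 in week 4, with a pair difference of -1.44 (SE 0.12). In total RNA of the same lysates the pair differences were -0.10 for CHCHD10, -0.0015 for MYADM, -0.013 for H2AC11, 0.070 for TMSB4X, -0.041 for PTGES3 and -0.037 for RAP1B.

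**Figure D1:**
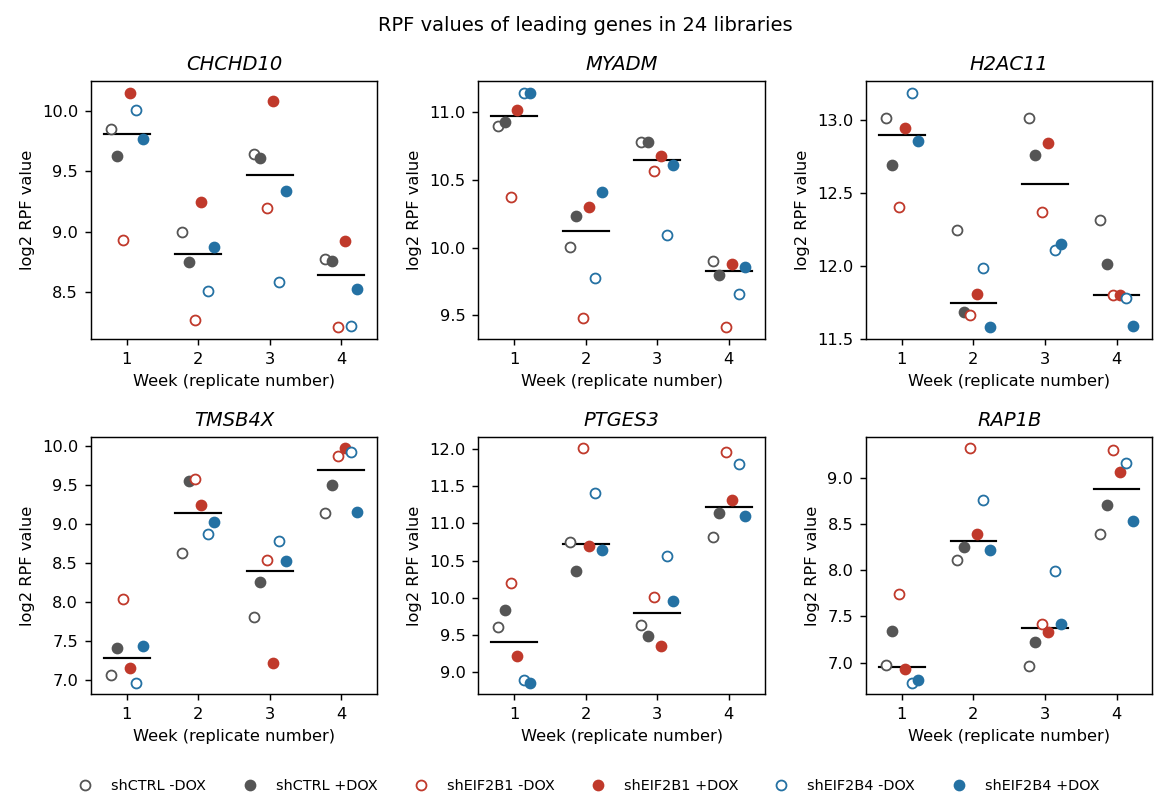
Log2 RPF values (y axis) of 6 genes by week (x axis), 1 point per library in 24 libraries; colour marks the shRNA line, open points -DOX, filled points +DOX, and the bar is the median of the 6 libraries. CHCHD10, MYADM and H2AC11 have higher medians in weeks 1 and 3 than in weeks 2 and 4, and TMSB4X, PTGES3 and RAP1B have lower ones.

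In 276 of 11145 RPF genes, 2.48%, all 12 group-centred libraries of weeks 1 and 3 lay above all 12 of weeks 2 and 4. In 636 genes, 5.71%, all lay below. These counts describe the contrast that chose the pairs and support nothing about it. With each library centred on its median, which adds 0.063 to every pair difference, they were 443 and 476. Without shEIF2B4 -DOX of week 3 they were 846 and 1070 of 11145 genes, more than with it. Leaving out a whole week, which lowers the number of libraries that must not overlap, gave 1839 genes in all without week 1, 3382 without week 2, 4234 without week 3 and 1288 without week 4. The mean difference had the same sign in all 6 groups for 3697 genes higher and 3535 genes lower in weeks 1 and 3, 64.9% of the table. Just inside the limit of no overlap were TGFB1I1, with a pair difference of 0.44, and SKA1, with -0.65. Just outside were IFT80 at -0.49 and TRAF7 at 0.41.

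Among non-overlapping genes at or above the median level, the largest positive differences after those of CHCHD10, MYADM and H2AC11 belonged to genes of varied function. They were the transporter MFSD10 (0.79), the ubiquitin-conjugating enzyme UBE2S (0.79), the mRNA decay factor ZFP36L1 (0.78), the mannosyltransferase subunit DPM3 (0.77), the complex I subunit NDUFA7 (0.76), the nucleoside transporter SLC29A2 (0.75) and MANBAL (0.74). The largest negative ones after those of TMSB4X, PTGES3 and RAP1B belonged to genes with a CDS of 216 to 552 bases. Short CDSs were also found on the positive side, at 240 to 342 bases in UBE2S, MANBAL, DPM3 and NDUFA7, beside 1017 to 1443 in ZFP36L1, SLC29A2 and MFSD10. They included the protein modifier SUMO2 (-1.38), the prefoldin subunit PFDN4 (-1.36), the heterochromatin protein CBX3 (-1.35), the transcription cofactor SUB1 (-1.32), RP11-38C17.1 (-1.29) and C11orf58 (-1.28). Below the median level, the largest were NPIPB11 (0.82), FAM174C (0.64), PKIG (0.64), TMEM175 (0.63) and BCL2L12 (0.63). On the negative side they were the RNA polymerase II subunit POLR2K (-1.65), the spliceosomal core protein SNRPE (-1.56), SMIM4 (-1.53), the prefoldin subunit PFDN1 (-1.38) and the centriole protein CETN3 (-1.37). NPIPB11 belongs to a multigene family whose copies share sequence, so its value is uncertain. The highest pair difference of all genes, 1.27 (SE 0.18), was that of the polycystin gene PKD1, whose libraries overlapped between week pairs. PKD1 has near-identical pseudogene copies and was named after its value was seen.

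The base composition of the CDS ordered the pair differences more closely than any other feature examined. Across the 10765 RPF genes with a matched CDS (96.6%), the Spearman correlation of the pair difference with CDS GC content was 0.875. Genes within a library share its preparation and are not independent, so this correlation and those that follow describe the genes and carry no p. Each 10 percentage points of CDS GC went with a rise of 0.37 in the pair difference, and a curve in CDS GC held 73.9% of its variance over genes. For total RNA of the same lysates the slope was 0.0082 and the share 1.75%. The correlation in RPFs was -0.014 with CDS length and -0.0018 with the mean level.

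Genes were also split into 10 bins by CDS GC. The lowest bin, 31.4% to 41.2%, had a median pair difference of -0.55, and the highest, 64.0% to 79.8%, had a median of 0.43. Of 1077 genes in the lowest bin, 280 did not overlap on the low side and 0 on the high side. In the highest bin 45 genes did not overlap on the high side and 0 on the low side. The most on the high side, 87, were in bin 8. Without shEIF2B4 -DOX of week 3 the lowest bin held 464 on the low side, and the highest bin held 251 on the high side, more than the 180 of bin 8. Non-overlapping genes had a median CDS GC of 60.05% where higher in weeks 1 and 3 and 41.6% where lower, against 52.4% over all genes.

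**Figure D2:**
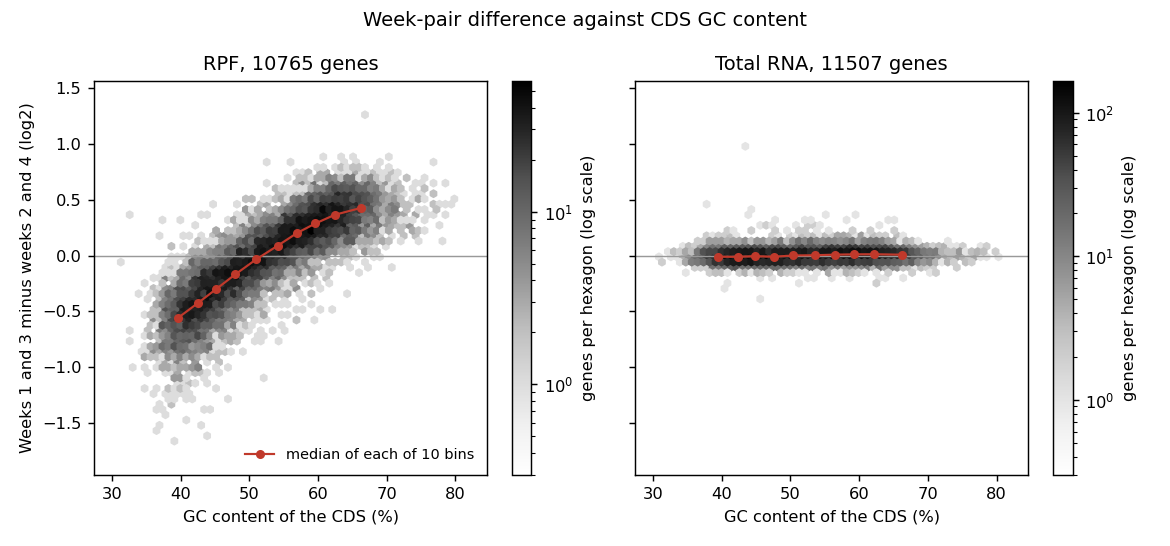
Pair difference (log2, weeks 1 and 3 minus weeks 2 and 4) against the GC content of the CDS (percent), with 1 panel for 10765 RPF genes and 1 for 11507 total RNA genes; hexagons are shaded by the number of genes on a log scale and the line joins medians of 10 bins of genes by GC. The RPF medians climb from -0.55 to 0.43, and total RNA stays near 0.

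Of the 3 codon positions, the last had the closest relation. The correlation of the pair difference was 0.842 with GC at position 3, 0.675 at position 1 and 0.559 at position 2. GC of the 3′UTR, where elongating ribosomes are rare, had a correlation of 0.688, and GC of the 5′UTR had 0.270. With CDS GC held fixed, the rank correlation with 3′UTR GC was 0.121, that with 5′UTR GC was -0.011, and that with GC at position 3 was 0.145. With GC at position 3 held fixed, CDS GC kept 0.456.

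By codon, all 30 sense codons that end in A or T had a negative correlation between their share of a CDS and the pair difference, from -0.79 to -0.037. Of the 31 that end in G or C, 27 had a positive one, and the highest reached 0.73. The most negative were AAA for lysine (-0.79), GAA for glutamate (-0.77) and AAT for asparagine (-0.71). Among amino acids, lysine (-0.58), asparagine (-0.48), isoleucine (-0.42) and glutamate (-0.30) stood at the negative end, and alanine (0.45), proline (0.39) and glycine (0.37) at the positive end.

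The slope on CDS GC was also computed in each library, on values with the group mean removed. It is given as log2 per 10 percentage points. The 6 libraries of week 1 ran from 0.20 to 0.47 with a median of 0.25, and those of week 3 from -0.091 to 0.19 with a median of 0.12. Week 2 ran from -0.22 to -0.045 with a median of -0.13, and week 4 from -0.28 to -0.20 with a median of -0.26. Of the 12 libraries of weeks 1 and 3, 11 had a slope above 0, and of the 12 of weeks 2 and 4 none did. The exception, at -0.091, was again shEIF2B4 -DOX of week 3. Before the group mean was removed its slope was -0.20, beside 0.36, -0.24 and -0.36 in weeks 1, 2 and 4 of its group. In total RNA the weekly medians were between -0.060 and 0.029, and 6 of 12 libraries were above 0 in each week pair.

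**Figure D3:**
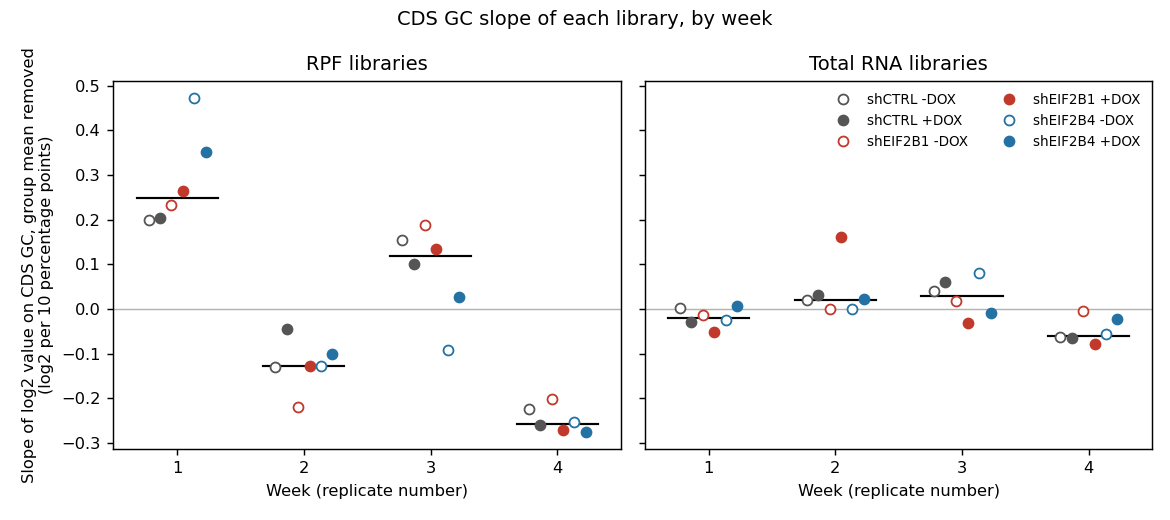
Slope of group-centred log2 values on CDS GC (log2 per 10 percentage points, y axis) in each library by week (x axis), with 1 panel for 24 RPF libraries and 1 for 24 total RNA libraries; each point is a library and the bar is the median of the 6. RPF medians are 0.25 and 0.12 in weeks 1 and 3 and -0.13 and -0.26 in weeks 2 and 4.

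Every group showed the relation. The correlation of the pair difference with CDS GC was between 0.799 and 0.825 in the 6 groups taken one at a time, each with 1 library per week. After the group means were removed, RPF libraries of the same week had a median correlation of 0.674 over genes (60 pairs of libraries). It was 0.531 between the weeks of a pair (60 pairs) and -0.589 between week pairs (120 pairs). In total RNA the medians were 0.190, -0.156 and -0.012. Removing group means lowers correlations between weeks, and the pairs were chosen for likeness of this kind.

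Related genes that differ in base composition were compared, a set chosen after their values were seen. SUMO2 stood at -1.38, with 44.4% GC, and SUMO3 at 0.099 (SE 0.069) with 58.0%. RAP1A (-0.90, 41.8% GC) was nearer 0 than RAP1B (-1.44, 37.8% GC), whose CDS has the same length. TMSB10, another thymosin with a CDS of 135 bases, had -0.28 (SE 0.11) and 51.1% GC, beside -1.61 for TMSB4X. In each of these pairs the member with more G and C had the higher pair difference, but not every pair of related genes examined kept this order. In total RNA the pair differences of these 6 genes lay between -0.038 and 0.070.

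H3-3A and H3-3B encode the same histone variant, H3.3, from different codons. Their first 120 coding bases are shown for that reason, with the same capitals.
H3-3A: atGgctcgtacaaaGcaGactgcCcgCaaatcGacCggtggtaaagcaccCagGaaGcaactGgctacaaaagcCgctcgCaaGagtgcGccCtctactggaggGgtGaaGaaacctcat
H3-3B: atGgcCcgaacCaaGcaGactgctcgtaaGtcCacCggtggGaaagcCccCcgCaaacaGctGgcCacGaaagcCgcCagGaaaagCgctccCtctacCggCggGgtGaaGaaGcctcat
Of the 40 codons shown, 19 end in G or C in H3-3A and 27 in H3-3B. H3-3A lies on chr1:226061851-226072001, plus strand, and has a CDS GC of 51.6%. H3-3B lies on chr17:75776434-75785893, minus strand, with 59.4%. The pair difference was -0.21 (SE 0.053) for H3-3A and 0.20 (SE 0.060) for H3-3B. Over 7 sets of genes with identical listed proteins, 36 genes in all, the order by GC was not uniform. In the 11 histone H4 genes the correlation of the pair difference with CDS GC was 0.598, from H4C5 at -0.57 to H4C9 at 0.34, but it was -0.294 in 9 histone H3 genes, whose GC spans only 59.1% to 63.5%. Short footprints of these copies may be assigned to one or another of them.

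Gene lists were described by the median of their members, beside a median of 0.021 over all RPF genes. Of all RPF genes, 51.8% had a pair difference above 0. Of 28 lists, 11 had a median above 0 and 17 below. The direction flipped in 2 lists when libraries were centred on their medians, the spliceosome and SR proteins and the lysosomal list. The list medians in total RNA were all between -0.069 and 0.039.

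The lowest medians were those of 4 lists, cohesin and condensin, hnRNP, heat shock and mitotic genes. Cohesin and condensin genes, whose ring complexes hold and fold chromosomes, had a median of -0.55 over 15 members, from SMC3 at -0.87 to NCAPH2 at 0.39. Of these, 1 did not overlap on the high side and 0 on the low side. The 26 mitotic and kinetochore genes had a median of -0.45, from the motor protein CENPE (-0.91) to the survivin gene BIRC5 (0.53), with 0 and 2 members not overlapping on the high and the low side. The 25 hnRNP genes, which bind nascent transcripts, had a median of -0.50, and HNRNPA2B1 was lowest at -1.12 and HNRNPA0 highest at 0.30. None of the 25 was free of overlap. The study had singled out this group on these samples, so it is not independent of them. The median CDS GC was 40.5%, 43.5% and 47.7% in these 3 lists.

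Heat shock chaperones had a median of -0.48 over 13 members, from the HSP110 protein HSPH1 (-1.01) to the small chaperone HSPB1 (0.62). The 298 zinc finger genes of the ZNF series, mostly DNA-binding factors, had a median of -0.19, from ZNF146 (-0.89) to ZNF575 (0.71), and 24 of them did not overlap on the low side. Kinesin and dynein motors had a median of -0.18 over 40 members.

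The translation machinery was split within its lists. The 67 initiation and elongation factors had a median of -0.22, and 6 did not overlap on the low side. Their lowest member was EIF3M, an eIF3 subunit, at -1.24. The 84 cytosolic ribosomal proteins had a median of -0.091, from RPS24 (-1.12) to RPL18 (0.65), with 1 non-overlapping member each way. Their 75 mitochondrial counterparts had a median of -0.070, from MRPS10 (-1.14) to MRPL38 (0.48). Among the 8 eIF2B and eIF2 subunits EIF2S1, which encodes eIF2α, was lowest at -0.83 and EIF2B1 highest at 0.19. The 79 oxidative phosphorylation genes also diverged, from the complex I subunit NDUFA5 (-1.07) to the complex IV subunit COX8A (0.89), with 3 non-overlapping members on the high side and 9 on the low side. In the 36 proteasome subunits the range ran from PSMA4 (-1.09) to PSMB10 (0.54).

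Lists with medians from 0.19 to 0.50 held proteins of varied kinds. The 182 solute carriers, which move ions and metabolites across membranes, had a median of 0.23, from SLC25A17 (-0.63) to SLC22A18 (0.84), with 18 non-overlapping members on the high side and 4 on the low side. Integrins, laminins and collagens had a median of 0.23 over 33 members, up to 0.80 for the laminin chain LAMA5. All 7 metallothioneins, small metal-binding proteins, were above 0, from MT1X (0.22) to MT1F (0.88), but none was free of overlap, and their sequences are near copies. Clustered histone genes had a median of 0.19 over 54 members, 41 of them above 0. Immediate early and NF-κB genes had a median of 0.29 over 15 members, up to 0.68 for the transcription factor EGR1. Interferon-stimulated genes had a median of 0.27 over 18 members, up to 0.72 for IFITM2, and 14 of them were above 0.

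The 27 genes of the integrated stress response (ISR), which eIF2B depletion bears on, had a median of 0.20, and 18 of them were above 0. Their range ran from CEBPG (-0.59) to DDIT4 (0.72). Cholesterol synthesis genes had a median of 0.21 over 22 members with SC5D lowest at -0.98, and 2 did not overlap on the high side and 4 on the low side. Medians nearer 0 were those of glycolysis enzymes (0.14), the spliceosome and SR proteins (-0.047), the lysosomal list (-0.037), DNA replication factors (-0.12), proteasome subunits (-0.12), ER chaperones (-0.14) and aminoacyl-tRNA synthetases (-0.15). Member counts from all 24 libraries stand beside 2.48% and 5.71% over all genes. They come from the contrast that chose the pairs, and nothing is read from them. Without shEIF2B4 -DOX of week 3 the counts on the high and the low side were 48 and 7 for solute carriers, 10 and 0 for histones, 1 and 11 for mitotic genes, and 1 and 2 for cohesin and condensin. They were 5 and 34 for ZNF genes, 2 and 10 for translation factors, 4 and 4 for cytosolic ribosomal proteins, 8 and 10 for oxidative phosphorylation, and 1 and 0 for metallothioneins. Without this library the counts over all genes, given above, were also larger, so 2.48% and 5.71% do not apply to these counts.

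**Figure D4:**
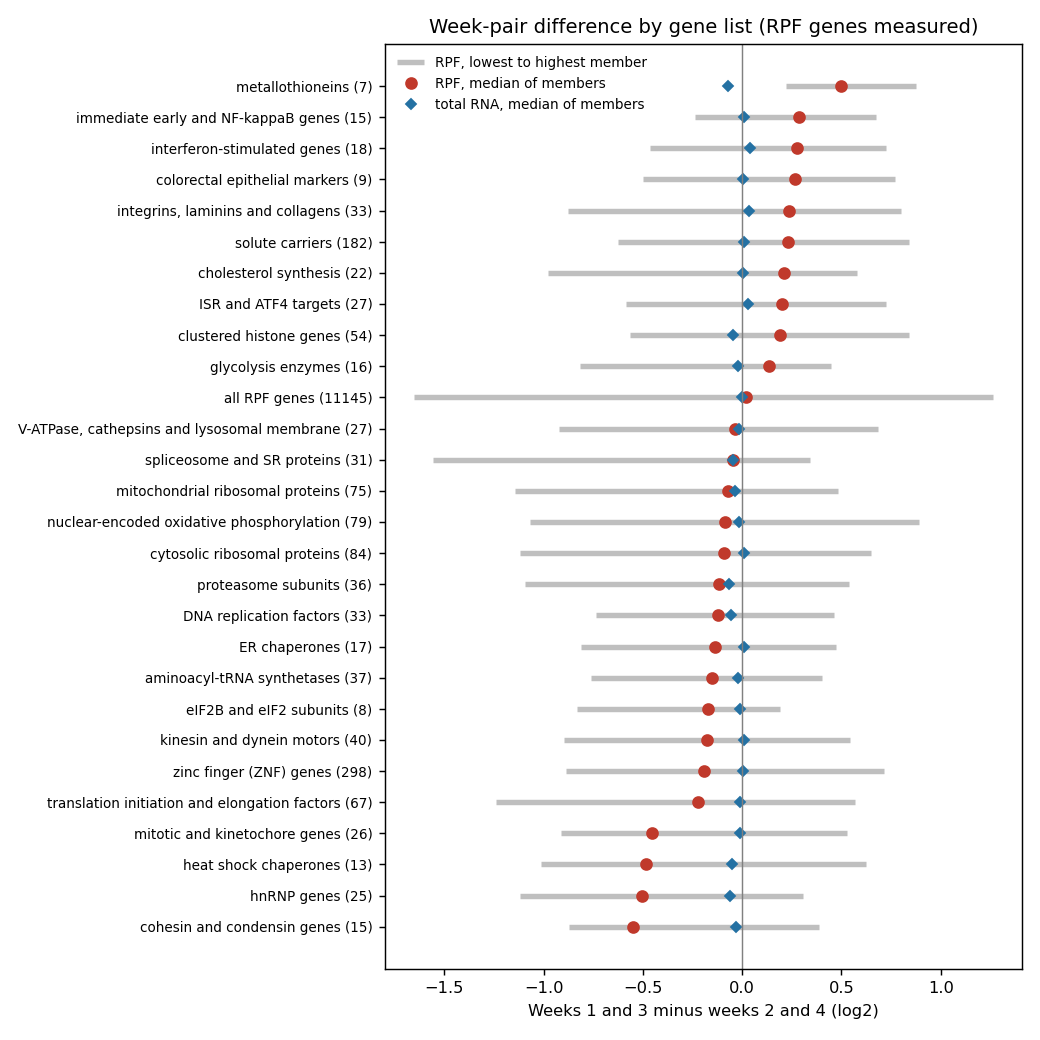
Pair difference in RPFs (log2, x axis) of the members of each gene list (rows, with the number of members); the grey bar runs from the lowest to the highest member, the red point is the RPF median and the blue diamond the total RNA median. RPF medians run from -0.55 for cohesin and condensin genes to 0.50 for metallothioneins, and total RNA medians stay between -0.069 and 0.039.

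A smaller set of genes was free of overlap once the trend on CDS GC content was taken out, which is again a description. Other aspects of base composition were not removed. When the trend on CDS GC was removed from each library, an alternative chosen after the data were seen, 223 of 10765 genes did not overlap, 93 higher and 130 lower in weeks 1 and 3, of which 157 were also free of overlap before. The 130 lower genes had a median CDS of 618 bases and the 93 higher ones 966 bases, against 1314 bases over all genes. The SD of the remaining pair difference was 0.262 in the shortest of 5 bins of genes by CDS length (39 to 681 bases) and 0.153 in the longest. In genes with a CDS of at least 300 bases (10449 genes), the remainder had its most positive correlations with the share of leucine (0.283), phenylalanine (0.227), tryptophan (0.183) and cysteine (0.178). The most negative were with glutamate (-0.269), lysine (-0.211) and arginine (-0.181).

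With the GC trend removed, genes were ranked among those of the 223 free of overlap that lay at or above the median level. Below that level NPIPB11 reached 0.68 and SMIM4 -1.13. The highest in the ranking was KDELR2, a receptor that returns proteins to the endoplasmic reticulum (ER), at 0.61 (SE 0.068). RPL10L (0.60), the mitochondrial import subunit TOMM7 (0.57), UNC50 (0.56) and the ER-shaping protein REEP5 (0.55) followed. KDELR2, TOMM7, UNC50 and REEP5 are membrane proteins, and RPL10L is a close copy of RPL10, so its value is uncertain. Of the 28 lists, 18 had a median nearer 0 with the same sign, 8 changed sign and 2 lay farther from 0. Cohesin and condensin genes went from -0.55 to -0.080, mitotic genes from -0.45 to -0.097, and immediate early genes from 0.29 to 0.023. Histones went from 0.19 to -0.10 and ZNF genes from -0.19 to 0.017. The median of the colorectal epithelial markers went from 0.27 to -0.0056. Larger medians were left in hnRNP genes (-0.35), heat shock chaperones (-0.20), metallothioneins (0.20) and solute carriers (0.17). The spliceosome and SR proteins moved from -0.047 to -0.20. The lowest genes in the same ranking were TMSB4X at -1.25 (SE 0.15), C11orf58 (-1.07), the signal recognition particle subunit SRP9 (-0.91), the small GTPase RHEB (-0.80) and PTGES3 (-0.78). These genes were picked by size after their values were seen. Several genes named above changed sign. HNRNPA0 went from 0.30 to -0.078, H3-3B from 0.20 to -0.061, H4C9 from 0.34 to -0.040, SUMO3 from 0.099 to -0.12 and MT1X from 0.22 to -0.060. SKA1 went from -0.65 to 0.16 and IFT80 from -0.49 to 0.17.

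Total RNA, which the choice of week pairs did not use, was tested for the same contrast with limma. At a Benjamini-Hochberg adjusted p under 0.1, 1 of 11947 genes was called, 0.00837%, and 423 had an unadjusted p under 0.05. The gene was IGF2R, a receptor of lysosomal sorting, higher in weeks 1 and 3 by 0.31 (SE 0.054, limma adjusted p = 0.0618). Its RPF pair difference was 0.12. The call was lost without week 1, 3 or 4, at limma adjusted p = 0.19, 0.215 and 0.918, and with week as a random effect, at limma adjusted p = 0.99999. The count of calls was 706 without week 2. Of the 912 genes free of overlap in RPFs, 903 had a total RNA value, and in these the median absolute pair difference was 0.56 in RPFs and 0.030 in total RNA. Of the 903, 24 had an unadjusted p under 0.05 in total RNA. For the leading genes named above, total RNA differences did not exceed 0.12 in size.

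The weeks within each pair also differed in RPFs. These contrasts do not overlap with the one that chose the pairs, though weeks were paired for being alike. The p-values are from limma over all RPF genes and measure the spread among libraries, since each week is 1 experiment. Week 1 against week 3 called 3549 genes, 31.8%, of which 1775 were higher and 1774 lower in week 1. The counts moved to 1649 without shEIF2B4 -DOX of week 3, to 400 with the GC trend removed and to 293 when only the 12 libraries of these weeks were fitted. The highest were MPLKIP by 0.80 (limma adjusted p = 3.89e-05), TMEM160 by 0.78 (limma adjusted p = 0.000496) and ASCL2, a transcription factor of intestinal stem cells, by 0.78 (limma adjusted p = 0.000917). TMEM160 lost its call with the GC trend removed, at limma adjusted p = 0.102. The lowest were TMSB4X at -0.85 (limma adjusted p = 0.00468), the giant muscle protein gene NEB at -0.84 (limma adjusted p = 0.00386) and the RNA-binding LSM5 at -0.81 (limma adjusted p = 0.00656).

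Week 2 against week 4 called 1372 RPF genes, 12.3%, with 796 higher and 576 lower in week 2. The count was 2653 without week 1, which enters the estimate of spread, and 3104 when only the 12 libraries of these weeks were fitted. The highest were AZGP1 by 1.05 (limma adjusted p = 0.00037), the nucleotidase ENTPD8 by 0.93 (limma adjusted p = 0.00984) and the lipoprotein receptor LRP1 by 0.89 (limma adjusted p = 0.0101). The lowest were LSM5 at -1.02, CHURC1-FNTB at -0.81 and TMA7 at -0.79, with limma adjusted p = 0.00565, 0.00565 and 0.00698. The correlation with CDS GC over genes was 0.789 for week 1 against 3 and 0.570 for week 2 against 4. By bins of CDS GC the medians went from -0.24 to 0.30 and from -0.16 to 0.16. Taken by group, the correlation for week 1 against 3 was 0.78 and 0.72 in shEIF2B4 -DOX and +DOX. It was 0.14 to 0.41 in the groups of the other lines. For week 2 against 4 it was -0.081 in shEIF2B1 -DOX and 0.35 to 0.53 in the other groups.

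Some lists of the translation and division machinery held calls within a pair, beside the 31.8% and 12.3% of all genes. In week 1 against 3, 31 of 84 cytosolic ribosomal protein genes were called higher in week 1 and 8 lower, and in week 2 against 4 the calls were 1 higher and 10 lower. Histone genes had 17 calls higher and 4 lower of 54 in week 1 against 3, and 1 higher and 27 lower in week 2 against 4. Of 26 mitotic genes, 2 were called higher and 15 lower in week 1 against 3, and 0 and 4 in week 2 against 4. Without shEIF2B4 -DOX of week 3, the calls in week 1 against 3 were 17 higher and 2 lower for ribosomal proteins, 5 and 1 for histones and 2 and 8 for mitotic genes. Fewer of all genes were called in that setting, as given above, so 31.8% does not apply to these counts.

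In total RNA more genes were called between weeks 2 and 4 than between weeks 1 and 3. In RPFs the opposite held with all 24 libraries in the fit, but not with only the 12 libraries of the weeks compared (293 and 3104). Week 1 against week 3 called 449 genes, 3.76%, with 156 higher and 293 lower in week 1 (240 and 262 with each library centred on its median). The count was 242 without shEIF2B4 -DOX of week 3, 1016 without week 2, 100 without week 4 and 49 when only the 12 libraries were fitted. The Wnt inhibitor DKK4 was higher by 0.56 (limma adjusted p = 0.000457), NELL2 by 0.42 (limma adjusted p = 0.00487) and ZFR2 by 0.47 (limma adjusted p = 0.0679). ZFR2 lost its call without week 4, in the 12 libraries alone and without shEIF2B4 -DOX of week 3, at limma adjusted p = 0.108, 0.114 and 0.18. RP5-1148A21.4 was lower at -1.99 (SE 0.53, limma adjusted p = 0.0513). PLBD2 was lower at -1.10 (limma adjusted p = 3.9e-07), as was the splicing factor MFAP1 at -1.19 (limma adjusted p = 4.79e-05). Week 2 against week 4 called 2482 genes, 20.8%, 1296 higher and 1186 lower in week 2, and 1229 genes with the GC trend removed. LEMD1 was higher by 0.90, CBSL by 0.74 and AC138969.4 by 0.62, with limma adjusted p = 0.00455, 0.0111 and 0.0513. The caveolin CAV2 was lower at -0.60, SCML1 at -0.56 and BOLA3 at -0.49, with limma adjusted p = 0.00818, 0.0096 and 0.0161. CBSL is a near-identical copy of CBS, so its value is uncertain. The correlation with CDS GC was 0.570 in this contrast, -0.373 in week 1 against 3 and 0.152 for the week pairs. The total RNA library shEIF2B1 +DOX of week 2 had a group-centred GC slope of 0.16. The other libraries of that week had 0.00069 to 0.032. How far the calls and the correlation of week 2 against 4 rest on it was not tested.

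The study's own question, the response of RPFs to eIF2B depletion, was compared between the week pairs. The targeted genes were lower on induction than in shCTRL in every week. EIF2B1 differed in shEIF2B1 cells by -0.48, -0.33, -0.51 and -0.79 in weeks 1 to 4, and EIF2B4 in shEIF2B4 cells by -0.75, -0.60, -0.47 and -0.088. EIF2B4 was close to its shCTRL change in week 4. In week 1 its change was -0.35 in shEIF2B4 cells and 0.40 in shCTRL. In shEIF2B1 cells, where it is not the target, EIF2B4 differed from shCTRL by -0.52, -0.22, 0.25 and -0.24 in weeks 1 to 4.

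ATF4, the transcription factor at the centre of the ISR, was above its shCTRL change by 1.15, 1.31, 0.65 and 0.96 in shEIF2B1 cells in weeks 1 to 4, and by 0.57, 1.16, 0.83 and 0.47 in shEIF2B4 cells. DDIT3, the CHOP gene downstream of ATF4, was above it by 1.41, 1.75, 1.46 and 1.33 in shEIF2B1 cells, and by 1.205, 2.10, 2.30 and 1.31 in shEIF2B4 cells. PPP1R15A, which encodes the eIF2α phosphatase subunit GADD34, ranged from 0.91 to 1.21 and from 1.17 to 1.79. The 3 genes were thus above shCTRL in each of the 4 weeks in both knockdown lines. In ATF4 and DDIT3 the responses of weeks 1 and 3 overlapped with those of weeks 2 and 4 in both lines. In PPP1R15A weeks 1 and 3 (1.21 and 1.11 in shEIF2B1 cells, 1.504 and 1.79 in shEIF2B4 cells) were above weeks 2 and 4 (0.91 and 1.09, 1.196 and 1.17) in both, which share the same shCTRL libraries. The difference between week pairs was 0.16 (SE 0.30) and 0.46 (SE 0.30), and limma called neither.

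**Figure D5:**
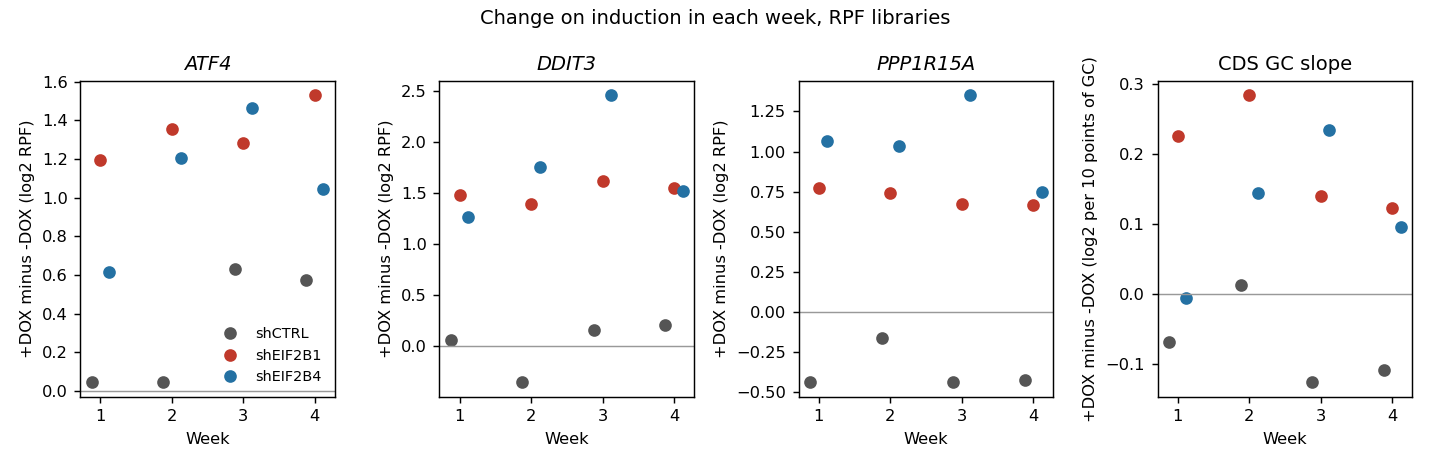
Change on induction (+DOX minus -DOX, y axis) by week (x axis) in the 3 lines, as log2 RPF values not corrected for shCTRL for ATF4, DDIT3 and PPP1R15A, and as log2 per 10 percentage points for the slope on CDS GC; each point is 1 line in 1 week. DDIT3 and PPP1R15A were higher with DOX in both knockdown lines in all 4 weeks, and so was the GC slope in shEIF2B1 cells.

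Tested over all 11145 RPF genes, no gene was called for a difference between week pairs in the response to shEIF2B1 (79 with an unadjusted p under 0.05), in the response to shEIF2B4 (60) or in the change on induction over all lines (237). With the week as a block in a paired fit no gene was called either, and 202, 120 and 480 genes had an unadjusted p under 0.05. In both fits each of these counts is below 1 in 20 of the genes tested. For DDIT3 the estimate was -0.10 (SE 0.57) in shEIF2B1 cells, so a difference between week pairs near its SE was not detectable. On simulated data, the test for shEIF2B1 recovered 13% of changes of 1 on the log2 scale, and that over all lines recovered 98.5%.

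The slope on CDS GC changed on induction as well. In shEIF2B1 cells it rose relative to shCTRL by 0.29, 0.27, 0.27 and 0.23 log2 per 10 percentage points in weeks 1 to 4 (mean 0.27 ± 0.026, SD, n = 4). In shEIF2B4 cells the values were 0.063, 0.13, 0.36 and 0.20 (mean 0.19 ± 0.13, SD, n = 4), the highest being week 3, whose -DOX library stood apart. In shCTRL itself they were -0.069, 0.013, -0.13 and -0.11. Total RNA gave 0.042 ± 0.10 for shEIF2B1 and -0.058 ± 0.076 for shEIF2B4. Its weekly values for shEIF2B1 were 0.034, 0.19, -0.027 and -0.030, the highest being week 2, whose +DOX total RNA library stood apart. The median slopes of week 1 and week 4, 0.25 and -0.26, lay farther apart than the change in shEIF2B1 cells within any week. Every week holds all 6 groups, so a shift shared by a week drops out of the comparison of groups within it.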

How the data were processed

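The values used here are the authors' deposited normalised log2 values per gene, made separately for RPFs and total RNA with DESeq2. The labels list cutadapt 1.18, Bowtie2, RSEM, SAMtools 1.9 and R 4.3.1. RPFs were counted on the CDS of the most abundant transcript of each gene, and replicate 3 joined reads of several runs. The study's supplement calls its normalised log2 values a regularised logarithm, which shrinks differences of genes with few reads, and the spread was nearly flat over levels (median SD 0.196, 0.233 and 0.219 in the lowest, middle and highest of 10 bins of RPF genes by level).

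Weeks were compared in R 4.3.3 with limma 3.58.1 (lmFit, eBayes with a mean-variance trend), with 6 groups as covariates and Benjamini-Hochberg adjustment over all genes of a table, two-sided, at 0.1. The RPF pair difference carries no test. By-pair responses used the product of group and week pair. CDS composition came from GENCODE v29 on GRCh38 by transcript identifier, not the authors' later release, for 96.6% of RPF and 96.3% of total RNA genes. The series' design text, and not the sample titles, states that the replicates were carried out in different weeks, so the numbers pair the libraries. After group means were removed, 55 of 60 same-week RPF pairs correlated above 0. The members, lists and tests were chosen with earlier results of these data known. Named genes were, by rule, the 10 largest non-overlapping differences each way at or above the median mean value of 6.99, 5 below it, the 3 largest calls each way per test, and the extremes of each list. Some genes that the rule names are not reported here. Tests were run on simulated data with no week effect beyond the planted changes, which recovered 200 of 200 genes changed by 1 for RPF week 1 against week 3. Python 3.11.15 and matplotlib 3.10.9 were used for the rest.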

Additional observations from a re-analysis of the deposited data

Results flagged for a closer look

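For 20 leading genes and 3 measures of each library, by week, 92 sets of 6 libraries were examined for a single library far from the other 5, by Dixon's ratio above 0.625. There were 4 such cases, and chance gives about 1 in 20, or 4.6. ZFP36L1 was low in shCTRL -DOX of week 2, at -0.68 from its group mean on the log2 scale. MANBAL was high in shEIF2B4 -DOX of week 1, at 0.91, and low in the same group in week 3, at -0.12. PFDN4 was low in shEIF2B4 -DOX of week 1, at -1.55. Of these cases 3 fall in the shEIF2B4 -DOX group, which holds the library of week 3 that scored with weeks 2 and 4. Whether that library bears on them was not tested.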

How the results depend on the processing

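The alternatives without the library shEIF2B4 -DOX of week 3 or both shEIF2B4 libraries of week 3, and those with the CDS GC trend removed, were chosen after the data were seen. The correlation of the RPF pair difference with CDS GC was 0.892 without the lowest 25% of genes and 0.816 to 0.887 with a week left out. Non-overlapping RPF genes numbered 1288 to 4234 with a week left out, 1916 without shEIF2B4 -DOX of week 3, 2483 without both shEIF2B4 libraries of week 3, and 223 with the GC trend removed. At an adjusted p under 0.05, limma called 2308 RPF genes in week 1 against 3, 576 in week 2 against 4, and in total RNA 0, 202 and 1401 for the week pairs, week 1 against 3 and week 2 against 4. All counts that follow are at an adjusted p under 0.1. With only the 12 libraries of the weeks compared, week 1 against 3 called 293 RPF and 49 total RNA genes, and week 2 against 4 called 3104 and 1998. Leaving out a week gave 2480 to 3000 RPF genes in week 1 against 3 and 1618 to 2653 in week 2 against 4, and in total RNA 0 to 706 for the week pairs, 100 to 1016 and 2013 to 2812. Without shEIF2B4 -DOX of week 3, week 1 against 3 called 1649 RPF and 242 total RNA genes. With the GC trend removed, 400 RPF genes were called in week 1 against 3 and 1229 total RNA genes in week 2 against 4. With the replicate block in a paired fit, the total RNA week-pair difference called 6 genes, 5 higher and 1 lower, and with week as a random effect 0. The block changed no other call. The change on induction by week pair called 1 gene without week 3 and 0 to 1 with any week left out. No named call of a test and no leading gene's pair difference reversed. Of 71 list, family and fixed genes, 12 changed sign with the GC trend removed, among them CD14 (0.30 to -0.057) and GFAP (0.0068 to -0.30). GFAP was -0.047 and -0.089 without week 1 or 4, and EIF2B4, 0.069 with all weeks, was -0.016 and -0.033 without week 2 or 3. Of the leading genes' RPF pair differences under these settings 25 moved by more than the spread, each with the GC trend removed, while 244 did not. Causes were not tested. With 4 weeks, each run once, and no read counts, counting error could not be measured, and the spread between weeks within a pair rests on 1 difference for each pair.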
